A study of Mus musculus with 18 samples.

Results

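On day 6, cells with a fusion of BRD9 to NUTM1 (BRD9-NUTM1, called BN1) were compared directly with cells in which AFF1 was joined to NUTM1 (AFF1-NUTM1, called AFFN1). Both groups share the NUTM1 portion and differ in its partner, so the comparison asks which transcripts depend on the partner. It rests on 6 libraries of the 18 in the series, chosen by their labels as 3 BN1 and 3 AFFN1 libraries of day 6. All cells were sorted CD45.2+ bone marrow cells of C57BL/6 mice, called iLS cells, and the 3 control libraries of the same day carry no fusion according to their labels. The labels do not give the promoter or vector behind either fusion, the age or number of the animals, or whether the 3 libraries of a group came from separate cultures, animals or clones. Adjusted p-values therefore measure the spread between these libraries, which may be technical, and if the libraries of a group share a culture, its history and the fusion cannot be told apart.

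BRD9 is a bromodomain protein of the non-canonical form of the SWI/SNF complex, which moves nucleosomes. AFF1 is a scaffold of the super elongation complex, which releases paused RNA polymerase II, and it is a frequent partner of KMT2A in leukemia. NUTM1 is normally active in the testis and binds the acetyltransferase p300, and its fusions occur in infant B-cell leukemia. B-cell precursors pass through stages that are marked by the recombinase genes, by the pre-B cell receptor and its kinases, and by growth on interleukin 7.

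Day 6 libraries held 14.2 to 17.7 counts in units of 1e6, and levels are given as counts per 1e6 (CPM) after TMM scaling within that day. Precursor B-cell markers were high in every library, for example Cd79a at 776 to 815 CPM in BN1 and 893 to 992 in AFFN1, and Rag1 at 1547 to 2571 and 1933 to 2934. Mouse Nutm1 had 0 reads in both groups, so it does not check the labels, and the species of the NUTM1 part is not given. Brd9 reads were near equal at 71.4 ± 2.98 CPM in BN1 and 67.2 ± 1.41 in AFFN1 (SD, n = 3, adjusted p = 0.507), as were those of Aff1 at 229 ± 19.1 and 225 ± 23 (adjusted p = 0.9), and neither sets a fusion apart from the gene itself. Some libraries stood apart in a gene list each. AFFN1 3 held 8309 CPM of 20 glycolysis and hypoxia genes against 4631 to 6116 in the other fusion libraries. BN1 3 held 3505 CPM of 18 immediate early and stress genes against 925 to 1011 in the other 5 fusion libraries, and AFFN1 2 held 210 CPM of 19 stromal and matrix genes against 16.8 to 106. In bulk RNA, a change in the share of a cell type and a change in RNA per cell cannot be told apart.

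Of 12068 genes tested, 1349 (11.2%) were called between BN1 and AFFN1 at an adjusted p under 0.05. Of these, 602 (4.99%) were higher in BN1 and 747 (6.19%) were lower. Large differences lay mostly on the lower side: 396 genes were lower and 238 higher by over 2-fold, 214 and 90 by over 4-fold, and 77 and 21 by over 16-fold. The median over all tested genes was -0.002 on the log2 scale, and called genes had a median absolute difference of 0.93. For 35% of tested genes the 3 BN1 and 3 AFFN1 values did not overlap. Without AFFN1 1 the count was 787 and without AFFN1 2 it was 725, and these 2 libraries were the closest pair of the day. It was 624 when the spread was estimated over all 18 libraries, and 1779 with only the 6 fusion libraries in the fit.

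**Figure D1:**
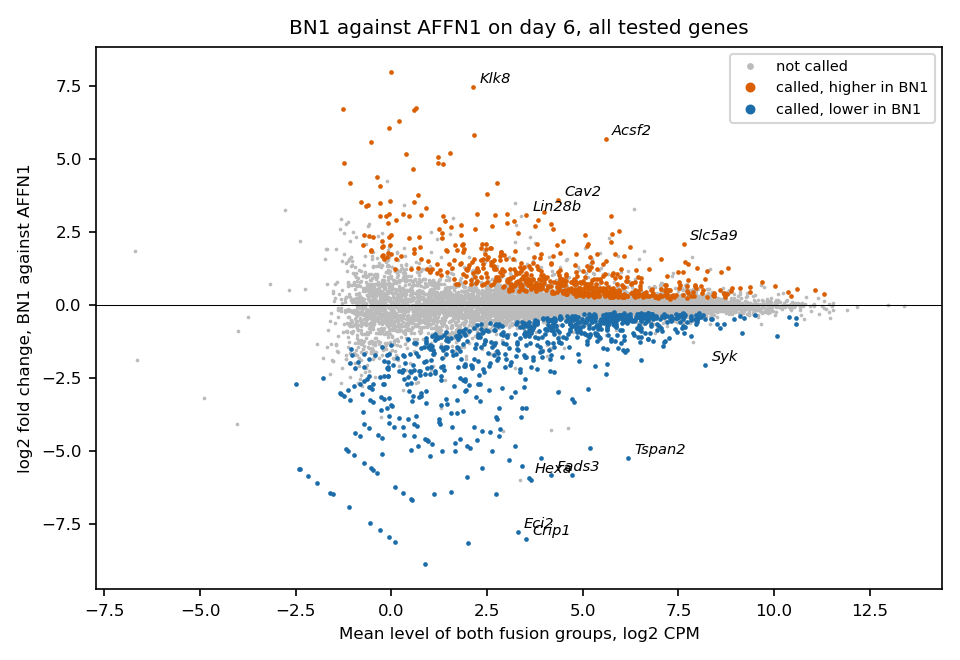
Each point is a gene, with the mean level of both fusion groups (log2 CPM) on the horizontal axis and the log2 fold change of BN1 against AFFN1 on the vertical axis. The 747 genes called lower in BN1 reach further from 0 than the 602 called higher, with 77 and 21 past 16-fold.

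Most of the genes with the largest deficit in BN1 were near 0 there and close to their control level in AFFN1. Fads3, a member of the fatty acid desaturase family, had 0.69, 0.709 and 0.446 CPM in BN1, 32.4, 29.9 and 43.5 in AFFN1, and 32.8, 37.9 and 33.8 in control cells. The BN1 libraries were all far below the other 6, which overlapped. Its log2 fold change was -5.82 ± 0.22 (SE, 56.5-fold, adjusted p = 2.8e-07), and AFFN1 differed from control by 0.02 (adjusted p = 0.947). Over all tested genes, 12.7% were called between AFFN1 and control and 17.4% between BN1 and control, with the control libraries shared by both. Cntln, which encodes a centrosomal protein, had 0.862, 0 and 0.255 CPM in BN1 and 26.3, 26.9 and 21.4 in AFFN1, against 26.7 to 36.9 in control (log2 fold change -5.97 ± 0.46 (SE), adjusted p = 4.63e-05). Hsd17b11, a dehydrogenase found on lipid droplets, had 1.9, 0.451 and 0.318 CPM against 59.7, 52.9 and 42.9 (-5.81 ± 0.48 (SE), adjusted p = 0.000112), and control cells held 46.1 to 84.4. In each of these genes every BN1 library was below every other day 6 library. Tspan2, a tetraspanin of the cell membrane, was the most abundant gene of this kind, at 6.55, 2.9 and 1.59 CPM in BN1, 152, 152 and 120 in AFFN1 and 137 to 192 in control (37.7-fold lower in BN1, adjusted p = 5.68e-05).

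The glutathione transferase gene Gstt3 followed the same order at a lower level, with 0.517, 0 and 0.0637 CPM in BN1 and 11.6, 9.9 and 8.68 in AFFN1 (log2 fold change -5.57 ± 0.56 (SE), adjusted p = 0.000194), and 7.4 to 12.3 in control. Some of these genes had almost no reads in BN1. Nxt2, a factor of RNA export from the nucleus, had 3 reads over the 3 BN1 libraries and 278 over the AFFN1 libraries, a count ratio of 93.9 (95% interval 31.8 to 458, counting error only). Ccdc166, a coiled-coil gene, had 1 read against 387, a ratio of 392 (95% interval 69.9 to 15522). Eci2, an isomerase of fatty acid oxidation, had 4 reads against 944, and Itm2a, a membrane protein gene, had 7 against 632. Control cells held 386 reads of Nxt2, 203 of Ccdc166, 1214 of Eci2 and 762 of Itm2a. AFFN1 did not differ from control at the threshold in Nxt2 (adjusted p = 0.175), Eci2 (0.0538) and Itm2a (0.529), and was higher in Ccdc166 (0.0353).

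A second pattern was a gene that was high in AFFN1 and low in both BN1 and control. Hexa encodes the alpha subunit of lysosomal beta-hexosaminidase, which degrades GM2 ganglioside. It had 25.8, 24.7 and 20.6 CPM in AFFN1, 0.517, 0.193 and 0.446 in BN1 and 2.47, 0.879 and 1.87 in control. AFFN1 exceeded control at a log2 fold change of 3.74 (adjusted p = 5.7e-05), while that of BN1 against control was -2.15 (adjusted p = 0.00616), so the 59.7-fold difference between the fusions (adjusted p = 1.01e-05) came from both sides of the control level. Gm2a, the activator protein that presents this ganglioside to the enzyme, was also lower in BN1, at 83.3, 91 and 78.6 CPM against 211, 211 and 175 (-1.24 ± 0.11 (SE), adjusted p = 5.7e-05). Its AFFN1 libraries overlapped the control libraries at 155 to 187 CPM (adjusted p = 0.223).

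Cysltr1, a receptor for cysteinyl leukotrienes, lay on both sides of control as Hexa did, with 0.747, 0.193 and 0.382 CPM in BN1, 22, 23.3 and 16.8 in AFFN1 and 1.39 to 3.55 in control (log2 fold change -5.50 ± 0.41 (SE), adjusted p = 3.32e-05). Ttc30a1, a gene of transport in cilia, had 8.4, 9 and 5.73 CPM in AFFN1, 6 reads in all in BN1 and 0 reads in control. It has close relatives in the genome that the counting could have split, so its level is uncertain. The LIM-domain gene Crip1 had 1101 reads in AFFN1, 4 in BN1 and 5 in control. For these 3 genes the AFFN1 libraries stood above the other 6 without overlap. Myo1c, an unconventional myosin, showed the same order at a high level, with 310, 314 and 305 CPM in AFFN1, 168, 150 and 128 in BN1 and 115 to 160 in control (2.09-fold, adjusted p = 0.00054).

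**Figure D2:**
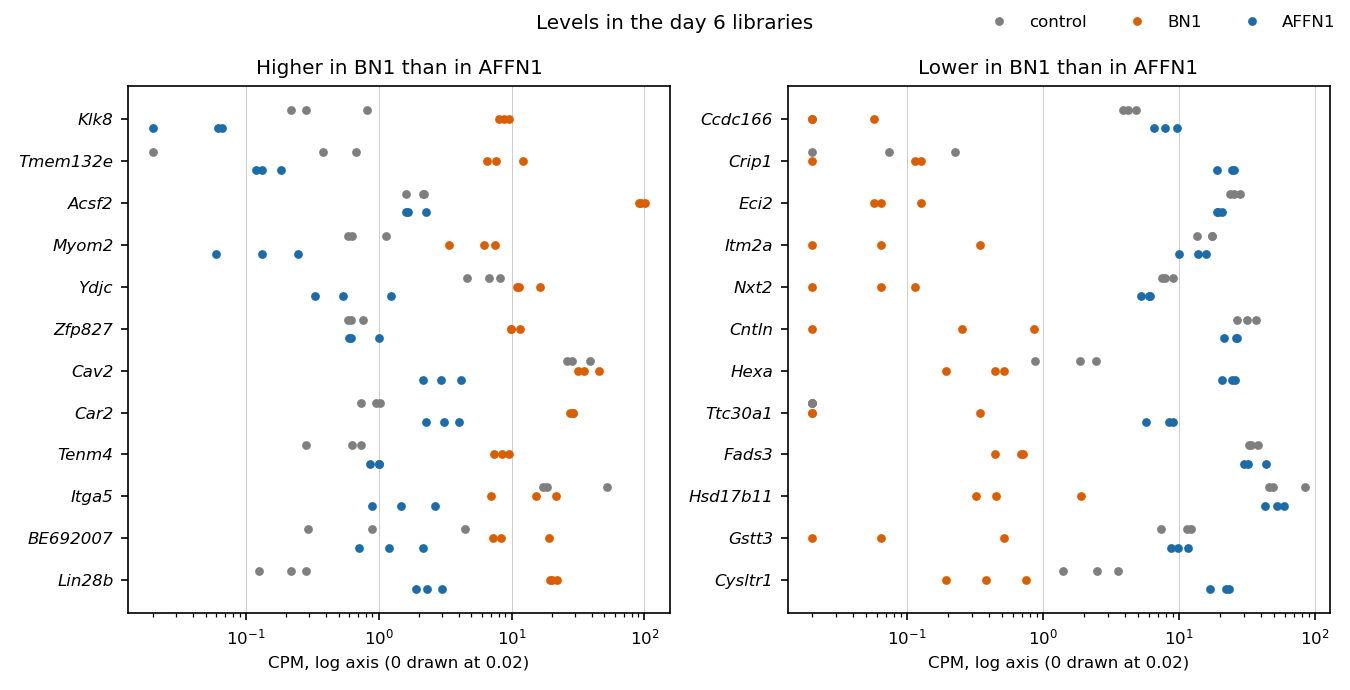
CPM on a log axis, with 0 drawn at 0.02 and 1 point per day 6 library. The left panel shows the 12 genes with the largest excess in BN1 and the right the 12 with the largest deficit. All are called genes that averaged 5 CPM or more in 1 of the groups and were chosen without overlap of BN1 and AFFN1. In the right panel control values lie beside those of AFFN1 for Fads3, Cntln, Eci2 and Nxt2 and beside those of BN1 for Crip1 and Ttc30a1.

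As examples of unlike promoters among genes near 0 in BN1, the 200 bases before the start of Fads3 and Hexa are printed from RefSeq (GRCm38.p6), 5′ to 3′ on the strand of the gene, with CG dinucleotides in capitals. Lin28b is shown beside them as a gene that was high in BN1.
Fads3, chr19:10041348-10041547, plus strand: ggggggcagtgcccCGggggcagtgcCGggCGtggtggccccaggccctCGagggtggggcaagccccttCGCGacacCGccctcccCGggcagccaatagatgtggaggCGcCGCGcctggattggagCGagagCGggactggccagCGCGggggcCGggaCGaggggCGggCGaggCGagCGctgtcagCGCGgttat
Hexa, chr9:59539340-59539539, plus strand: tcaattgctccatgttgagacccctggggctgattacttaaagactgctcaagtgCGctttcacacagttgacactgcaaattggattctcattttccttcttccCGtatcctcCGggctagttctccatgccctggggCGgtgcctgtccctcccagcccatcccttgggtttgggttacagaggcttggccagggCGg
Lin28b, chr10:45470202-45470401, minus strand: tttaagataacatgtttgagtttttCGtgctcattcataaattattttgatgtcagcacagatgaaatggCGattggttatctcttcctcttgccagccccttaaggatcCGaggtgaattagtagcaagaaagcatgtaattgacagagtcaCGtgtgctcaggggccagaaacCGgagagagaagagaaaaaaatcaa
The Fads3 window holds 23 CG dinucleotides, at a ratio of observed to expected CG of 0.82, and the Hexa window holds 5, at a ratio of 0.333. Lin28b also has 5, at 0.626 in a window with fewer G and C. A ratio of at least 0.6 was found in 35.7% of the 27025 promoters of the same length in the RefSeq table. These counts describe the windows alone, since neither methylation nor binding was measured here.

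Genes with the largest excess in BN1 were mostly low in both AFFN1 and control. Zfp827, a zinc finger gene, had 9.94, 9.86 and 11.7 CPM in BN1 and 0.6, 1.01 and 0.616 in AFFN1, with 0.586 to 0.76 in control. BN1 alone was high, by a log2 fold change of 3.80 ± 0.25 (SE, adjusted p = 1.12e-05) over AFFN1. Tenm4, a teneurin of the cell surface, had 9.6, 7.41 and 8.47 CPM against 1, 1.01 and 0.862 (3.14 ± 0.28 (SE), adjusted p = 7.88e-05), and the carbonic anhydrase gene Car2 had 27.8, 29.1 and 29 against 4, 2.27 and 3.08 (9.19-fold). Car2 was no longer called with the spread of all 18 libraries (adjusted p = 0.0685).

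Lin28b, which encodes an RNA-binding protein that blocks let-7 maturation in fetal progenitors, was above control in both fusions and to a different extent. It had 20.1, 21.9 and 19.4 CPM in BN1, 3, 2.33 and 1.91 in AFFN1 and 0.127, 0.22 and 0.283 in control. The 3 groups did not overlap. BN1 was 8.47-fold above AFFN1 (adjusted p = 1.12e-05), and AFFN1 was 11-fold above control (adjusted p = 8.84e-05). Of 5 tested fetal progenitor genes of the 8 listed, 40% were called, beside 11.2% of all genes. Lin28b was called higher in BN1 and Igf2bp2, an mRNA-binding protein gene, lower (8.27, 6.45 and 4.27 CPM against 13.3, 14.1 and 10.2, adjusted p = 0.0348). The Igf2bp2 call was lost without any 1 of control 1 (adjusted p = 0.0613), BN1 2 (0.0908), BN1 3 (0.0995), AFFN1 1 (0.115) and AFFN1 2 (0.129). It was lost as well with the replicate block (0.0545) and with all 18 libraries in the fit (0.16). The count of higher genes was 2 by DESeq2, with no filter and with the replicate block. It was also 2 without control 3, BN1 3 or the libraries numbered 3, and with only the 6 fusion libraries.

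For other genes AFFN1 lay further from control than BN1 did. Cav2, a caveolin of membrane pits, had 2.93, 2.15 and 4.19 CPM in AFFN1, 31.9, 35.3 and 45.9 in BN1 and 26.2 to 38.7 in control. BN1 and control overlapped (adjusted p = 0.409), and AFFN1 was 12.2-fold below BN1 (adjusted p = 2.52e-05). The thyroid hormone receptor gene Thrb had 121, 122 and 126 CPM in AFFN1, 248, 325 and 234 in BN1 and 256 to 298 in control (adjusted p = 0.00026 between the fusions). Ydjc was low in AFFN1 as well, at 0.333, 0.537 and 1.23 CPM against 11.4, 16.4 and 11 in BN1 and 4.64 to 8.13 in control. Its BN1 libraries were all above control, though not called against it (adjusted p = 0.0535). Ydjc overlaps Ccdc116 on the opposite strand, which was also called, and the strand setting of the counting is not given. Itga5, the alpha chain of the fibronectin receptor, had 1.47, 0.894 and 2.65 CPM in AFFN1, 7.01, 15.3 and 21.7 in BN1 and 17.3 to 51.8 in control (adjusted p = 0.0172). Its call was lost without AFFN1 1 (adjusted p = 0.0855), without AFFN1 2 (0.0793) and with no filter on low counts (0.0632).

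Gpam, Slc5a9, Slc16a1, Atp1b1 and Pag1 were among the genes higher in BN1 with the largest difference in mean CPM. Gpam, the enzyme that starts glycerolipid synthesis, had 593, 586 and 703 CPM in BN1 and 276, 263 and 238 in AFFN1 (2.42-fold, adjusted p = 0.00174). The sodium-coupled sugar transporter gene Slc5a9 had 305, 381 and 286 against 67.2, 73.5 and 86.6 (4.28-fold, adjusted p = 1.01e-05), and control cells lay between at 176 to 199. The monocarboxylate transporter gene Slc16a1 had 256, 299 and 376 against 93.6, 107 and 152 (2.64-fold, adjusted p = 0.00143). Genes of this ranking were chosen to have no overlap between the BN1 and AFFN1 libraries, so that separation is no added support. Atp1b1, the beta subunit of the sodium pump, had 276, 315 and 304 CPM against 87, 99 and 138 (2.77-fold, adjusted p = 0.0002). Pag1, a membrane adaptor that recruits the inhibitory kinase Csk, had 536, 470 and 614 against 253, 239 and 249 (2.19-fold, adjusted p = 0.00715). BN1 overlapped control in Pag1, where control held 386 to 719 CPM.

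Signalling genes of precursor B cells differed in both directions. Syk, the kinase that acts just behind the pre-B cell receptor, had 139, 109 and 95.7 CPM in BN1, 505, 500 and 414 in AFFN1 and 451, 365 and 482 in control. All BN1 libraries were far below the other 6, among which AFFN1 and control overlapped (log2 fold change of BN1 against AFFN1 -2.04 ± 0.16 (SE), 4.12-fold, adjusted p = 3.33e-05). Plcg2, the phospholipase downstream of Syk, had 431, 404 and 395 CPM in BN1 and 584, 573 and 564 in AFFN1, a smaller difference without overlap (1.4-fold, adjusted p = 0.00162). Blk, a Src-family kinase of B cells, was in the other direction, with 373, 345 and 348 CPM against 150, 158 and 138 (2.39-fold, adjusted p = 0.0155). The Blk call was lost without AFFN1 1 (adjusted p = 0.0702), AFFN1 2 (0.0554) or AFFN1 3 (0.0622) and with no filter (0.0586).

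Of 20 pro-B and pre-B cell genes, all tested, 3 were called higher in BN1 (Cd24a, Blk and Igll1) and 2 lower (Syk and Plcg2), which is 25% of the list beside 11.2% of all genes, with a median log2 fold change of -0.03. Cd24a, a surface antigen of precursors, was 1.48-fold higher in BN1, and Igll1, part of the surrogate light chain, 1.36-fold. Igll1 lost its call without BN1 2 (adjusted p = 0.065), BN1 3 (0.0663), AFFN1 1 (0.0695) or AFFN1 2 (0.0688). Cd24a lost it without any 1 of the 6 fusion libraries (adjusted p = 0.0634 to 0.0835). The count of genes called higher was 0 without AFFN1 1 or AFFN1 2, 1 without BN1 2, BN1 3 or AFFN1 3, and 5 without control 3. The pre-B receptor chain Cd79a, the adaptor Blnk and the kinase Btk were among the 15 that were not called.

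Of 17 B-lineage transcription factor genes, 3 had higher levels in BN1 and 1 a lower level (23.5% of the list, beside 11.2% of all genes), with a median of 0.13. Pou2af1, a coactivator of octamer-binding factors in B cells, had 344, 342 and 322 CPM in BN1 and 218, 208 and 210 in AFFN1 (1.59-fold, adjusted p = 0.00198). Ikzf3, an Ikaros-family gene that is activated as precursors mature, had 11.1, 11.3 and 11.6 against 2.93, 2.74 and 3.82 (3.57-fold, adjusted p = 0.00765). In both genes BN1 lay within the control range, 317 to 411 CPM for Pou2af1 and 6.27 to 16.8 for Ikzf3, and AFFN1 was below it. Bach2, a repressor of plasma cell genes, was 1.61-fold higher in BN1 (adjusted p = 0.03), and Id3, an inhibitor of E proteins, 1.64-fold lower (adjusted p = 0.0311). The Bach2 call was lost without control 1 (adjusted p = 0.0522), BN1 1 (0.101), BN1 3 (0.0866), AFFN1 2 (0.086) or AFFN1 3 (0.0841). That of Id3 was lost without BN1 1 (0.0561), BN1 3 (0.0795), AFFN1 1 (0.097), AFFN1 2 (0.0879) or AFFN1 3 (0.0656). Pou2af1 (adjusted p = 0.148), Bach2 (0.193) and Id3 (0.573) were not called with the spread of all 18 libraries. The count of higher genes was 5 without control 3 and 1 with all 18 libraries. That of lower genes was 0 without BN1 3 or any 1 AFFN1 library, 2 without control 2 and 3 without control 3. Of the factors of B-lineage commitment, Pax5 did not pass (adjusted p = 0.455), and Ebf1 (0.0978) passed in 3 of 16 alternatives (DESeq2, without control 3 and with only the 6 fusion libraries in the fit), at a lowest adjusted p of 0.0347.

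Among genes of later B cells, 9 of 14 were tested and 3 called (33.3%, beside 11.2% of all genes). Ighm, the mu heavy chain gene, had 2501, 2423 and 2738 CPM in BN1 and 1834, 1785 and 1667 in AFFN1, with control at 1572 to 1976, so BN1 alone was raised (1.45-fold over AFFN1, adjusted p = 0.00614, and 0.0944 with all 18 libraries). Cd40, a costimulatory receptor, was low throughout, with 0.172, 0.322 and 0.446 CPM in BN1 against 2.93, 2.03 and 2.28 in AFFN1 (7.6-fold lower, adjusted p = 0.000838). Cd22, an inhibitory receptor, was 2.13-fold lower in BN1 (adjusted p = 0.0473), and this call was lost without control 2, BN1 2, BN1 3 or any 1 of the AFFN1 libraries (adjusted p = 0.0696 to 0.132). The homing receptor gene Cxcr5, in a list of 18 chemokine and homing receptor genes of which 13 were tested, had 13.9, 14.6 and 14.3 CPM in BN1, 1.27, 1.55 and 3.2 in AFFN1 and 1.39 to 3.66 in control (7.07-fold higher, adjusted p = 0.000832). The other call of that list was Ccr2, a receptor of monocyte chemokines, at 11.5, 13 and 8.15 CPM in BN1 against 29.8, 25.2 and 24.6 (2.44-fold lower, adjusted p = 0.00217, and 0.247 with all 18 libraries). The list's count of lower genes was 2 by DESeq2, with no filter, with the replicate block or with only the 6 fusion libraries. It was also 2 without control 3, BN1 2 or the libraries numbered 3. In the MHC class II list 10 of 13 genes were tested and 1 was called (10%). This was H2-DMa, which helps load peptides, at 3.05, 2.97 and 2.42 CPM against 9.27, 9.72 and 7.27 (3.11-fold lower, adjusted p = 0.000411). The count of lower MHC class II genes was 3 by DESeq2. It was 2 without control 2, control 3 or the libraries numbered 3, and with only the 6 fusion libraries. In each of these fits 1 gene was called higher, as with the replicate block and without BN1 3.

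**Figure D3:**
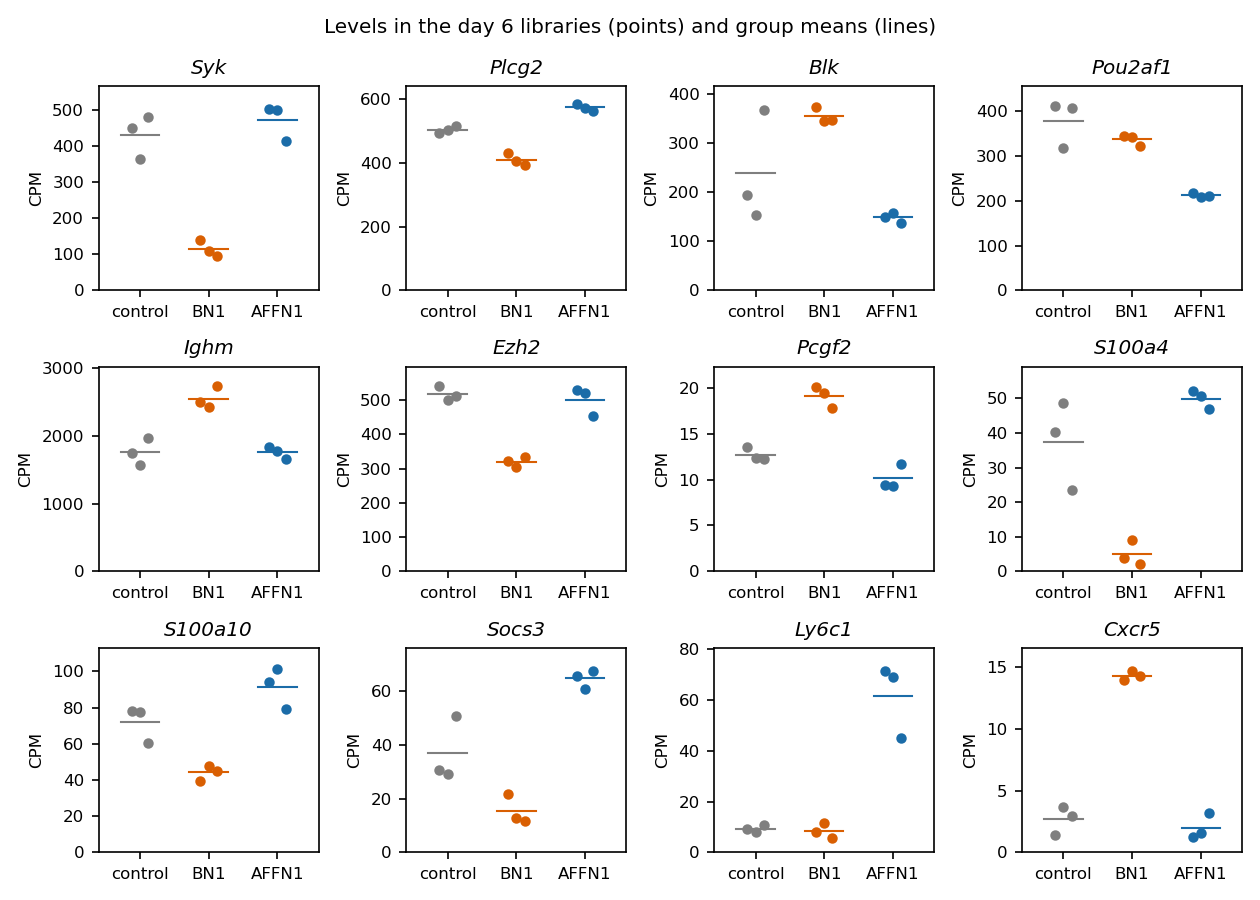
CPM of 12 genes in the day 6 libraries, with 1 point per library, lines for group means and each vertical axis starting at 0. BN1 is the group set apart for Syk (mean 115 CPM), Ezh2 (320) and Cxcr5 (14.3), and AFFN1 for Pou2af1 (212) and Ly6c1 (61.6).

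Of 15 tested S100, annexin and LIM-domain genes (of 16 listed), 7 were called, beside 11.2% of all genes, and each was lower in BN1. The list had a median log2 fold change of -0.72. S100a4, an S100 protein of motile cells, had 3.91, 8.96 and 2.23 CPM in BN1, 52.2, 50.6 and 46.8 in AFFN1 and 23.4 to 48.7 in control (9.94-fold, adjusted p = 0.00158). S100a10, the partner of annexin A2, had 39.5, 47.8 and 45.2 against 93.8, 101 and 79 (2.07-fold, adjusted p = 0.00054), and S100a11 had 0.69, 0 and 0.701 against 6.8, 7.15 and 4.31 (12.8-fold, adjusted p = 0.00217). Every BN1 library was below every AFFN1 and control library in these 3 genes. The other 4 called were S100a6 (4.18-fold), the galectin gene Lgals1 (1.7-fold), the membrane protein gene Emp3 (1.65-fold) and Crip1. Vim, Anxa2 and Tagln2 did not pass. The count was 7 without any 1 library other than BN1 3, without which it was 9. With the spread of all 18 libraries it was 3.

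Genes of the interleukin 7 receptor and Stat5 pathway held 4 calls among 14 tested (28.6%, beside 11.2% of all genes), each lower in BN1, with a median of -0.32. Socs3, a feedback inhibitor of cytokine receptors, had 21.7, 12.8 and 11.7 CPM in BN1, 65.7, 60.7 and 67.5 in AFFN1 and 29.2 to 50.5 in control (4.18-fold lower, adjusted p = 0.000843). The 3 groups did not overlap, with BN1 lowest and AFFN1 highest. Osm, a cytokine gene, had 1.49, 1.68 and 0.701 CPM in BN1 against 6.74, 6.5 and 11.8 (6.42-fold, adjusted p = 0.000657). The kinase gene Pim2 had 25.5, 17.3 and 16.4 against 45.4, 46.3 and 55.3, and here control, at 15.1 to 22.4 CPM, overlapped BN1 (2.48-fold, adjusted p = 0.00155). Il2rg, the shared receptor chain, differed by 1.29-fold. With all 18 libraries in the fit, Socs3 (adjusted p = 0.114), Pim2 (0.199) and Il2rg (0.111) were not called. Neither Il7r (0.37 on the log2 scale, adjusted p = 0.268) nor Stat5a and Stat5b passed.

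Polycomb genes, which encode histone-modifying repressor complexes, split with 4 higher and 2 lower of 21 (28.6% called, beside 11.2% of all genes), and the median was 0.005. Ezh2, the methyltransferase of complex PRC2, had 323, 305 and 333 CPM in BN1, 530, 521 and 455 in AFFN1 and 500 to 541 in control (1.57-fold lower, adjusted p = 0.000753). Pcgf5, a ring-finger subunit of PRC1, was lower by 1.57-fold as well (45.3, 38.5 and 45 CPM against 68, 70.3 and 64.5, adjusted p = 0.00184). Its relative Pcgf2 was higher, at 20.1, 19.4 and 17.8 CPM against 9.4, 9.24 and 11.7 (1.89-fold, adjusted p = 0.00115). BN1 was outside the control range in all 3 genes. The count of higher genes was 2 without BN1 2, BN1 3 or AFFN1 1 and 1 without AFFN1 2. The others called were Phf19 (1.89-fold), Bmi1 (1.28-fold) and Mtf2 (1.25-fold). Phf19 lost its call without BN1 2 (adjusted p = 0.0655) or AFFN1 2 (0.0777). Bmi1 lost it without control 1 (0.0521), BN1 2 (0.0896), BN1 3 (0.115), AFFN1 1 (0.128) or AFFN1 2 (0.122). With all 18 libraries in the fit neither Phf19 (adjusted p = 0.0665) nor Bmi1 (0.36) was called.

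Genes of the complexes to which the fusion partners belong were read beside the same 11.2%. None of 23 SWI/SNF subunit genes was called by edgeR (3 at an unadjusted p under 0.05, and 2 by DESeq2), with a median log2 fold change of 0.02. By edgeR the count of higher genes was 2 without control 3 or with only the 6 fusion libraries in the fit, and 1 without control 2. Of 17 genes of the super elongation complex, the elongation factor gene Ell3 was the 1 called, at 2.59, 1.61 and 2.04 CPM in BN1 against 4.67, 4.71 and 3.57 (2.07-fold lower, adjusted p = 0.0217). It lost its call without BN1 2 (adjusted p = 0.0764), BN1 3 (0.0645), AFFN1 1 (0.0874) or AFFN1 2 (0.0909). Of this complex 2 genes were called higher by DESeq2 or without control 3, and 1 without control 2. Of 7 tested genes among 8 NUTM1, acetyltransferase and BET genes, Brdt, the BET gene of the testis, was higher in BN1 at 1.9, 0.838 and 0.828 CPM against 0.333, 0.0596 and 0.308 (adjusted p = 0.033), a call lost without control 1 (0.0568), BN1 1 (0.127), AFFN1 1 (0.0768), AFFN1 2 (0.123) or AFFN1 3 (0.0692).

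**Figure D4:**
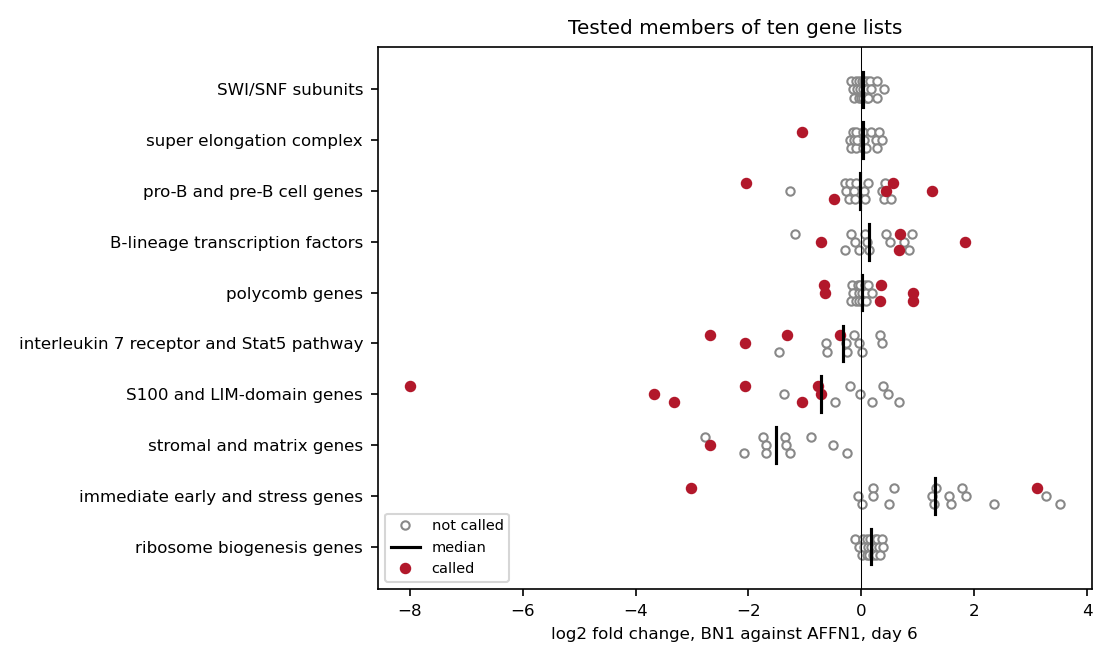
Each point is the log2 fold change of BN1 against AFFN1 for a tested member of a gene list, filled where called, with a black line at the list's median. SWI/SNF members lie close to 0 (median 0.02), S100 and LIM-domain genes extend to the left (median -0.72), and immediate early genes to the right (median 1.30) with 2 of 18 called.

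Hoxa9, a homeobox gene of KMT2A-rearranged leukemia, did not differ between the fusions beyond the spread of its libraries. It had 17.1, 17.5 and 8.22 CPM in BN1 and 19.4, 15.6 and 15 in AFFN1 (log2 fold change -0.22 ± 0.26 (SE), adjusted p = 0.656), and 0.147 to 0.38 in control. Without BN1 3 the sign of this difference turned, to 0.06. The 5 tested genes of the 11 in the Hoxa cluster were each below 0, with a median of -0.44. Of these, 1 gene, not reported here, was called lower (20%, beside 11.2% of all genes). That count was 0 without AFFN1 2 or with all 18 libraries in the fit. Of 13 tested among 16 Hox cofactors and KMT2A-fusion targets, 2 were higher and 2 lower (30.8% called, beside 11.2% of all genes). The higher ones were the transcription factor genes Myb (1.6-fold, adjusted p = 0.0155) and Mef2c (1.33-fold, adjusted p = 0.0257). The Myb call was lost without BN1 3 (adjusted p = 0.0573), AFFN1 1 (0.0505) or AFFN1 3 (0.0559), and that of Mef2c without BN1 1 (0.0641), BN1 3 (0.0943), AFFN1 2 (0.0812) or AFFN1 3 (0.0832). With all 18 libraries in the fit neither was called. Eya1, a transcriptional cofactor, had 0.0575, 0 and 0.255 CPM in BN1 against 2.53, 1.97 and 0.924 in AFFN1 (16.3-fold, adjusted p = 0.00421), and Runx2, a Runt-domain factor, had 8.39, 6.83 and 6.94 against 15.5, 15 and 15.1 (2.05-fold, adjusted p = 0.00275, and 0.326 with all 18 libraries). The values of the fusions did not overlap in Eya1 or Runx2.

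Surface antigens of the Ly6 group and related genes included 3 lower and 1 higher of 10 tested (of 12), or 40% beside 11.2% of all genes. The higher one was Cd24a, so its count was 0 without any 1 of the 6 fusion libraries. Ly6c1 had 8.1, 11.7 and 5.6 CPM in BN1, 71.1, 69 and 44.8 in AFFN1 and 8.13 to 10.8 in control (7.27-fold, adjusted p = 0.000123). AFFN1 was above the 6 other libraries, which overlapped. Ly6c1 is nearly identical to Ly6c2 and reads may have been split between them. Ly6a, the stem cell antigen Sca-1, was 1.55-fold lower in BN1 and Cd52 1.72-fold lower. Neither was called with all 18 libraries (adjusted p = 0.853 and 0.288).

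Counts for cell cycle and growth genes stand beside the 4.99% of all genes called higher and the 6.19% called lower. Of 20 DNA replication genes, Cdc6, which loads the MCM helicase, was lower (59.4, 57.7 and 57.6 CPM against 80, 77.7 and 81.7, adjusted p = 0.00553), as was the cyclin gene Ccne1 (1.49-fold, adjusted p = 0.0446, lost without any 1 of the 6 fusion libraries or control 1, at up to 0.145). Of 18 mitosis genes, the checkpoint kinase gene Bub1 was higher, at 165, 162 and 198 CPM against 104, 113 and 108 (1.61-fold, adjusted p = 0.00342). Of 8 tested D cyclin and CDK inhibitor genes (of 10), 7 were negative, with a median of -0.33, and Cdkn1a, the p21 inhibitor gene, was called lower at 145, 142 and 162 CPM against 223, 210 and 242 (1.5-fold, adjusted p = 0.00125, and 0.361 with all 18 libraries). That count was 2 without any 1 control library or BN1 3. None of 20 ribosome biogenesis genes (0 at an unadjusted p under 0.05, 0 by DESeq2), 12 tested Bcl2 family genes (2 and 1) and 18 tested cholesterol synthesis genes (1 and 0) was called by edgeR. Without the 3 libraries numbered 3, 6 ribosome biogenesis genes were called higher in BN1, and without AFFN1 3 it was 2. In the Bcl2 family 1 gene was called lower without control 3, BN1 2 or BN1 3, and 2 without the libraries numbered 3. In the amino acid response list of 18 genes, 14 tested, Asns, the asparagine synthetase gene, had 1.03, 0 and 0.318 CPM in BN1, 5.07, 4.89 and 15.6 in AFFN1 and 19.5 to 36.3 in control, so both fusions had less than control and BN1 least (adjusted p = 0.0105 between the fusions). Trib3, a pseudokinase gene of the same response, was higher in BN1 by 1.88-fold (adjusted p = 0.0087, and 0.126 with all 18 libraries).

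Of 19 tested interferon response genes 1 was called (5.26%, beside 11.2% of all genes), and the median was 0.00. The count of lower genes was 2 without control 3, 3 without AFFN1 3 and 5 without the 3 libraries numbered 3. Slfn5 and Bst2, which interferon can induce, were lower in BN1 and are in no interferon list here. Slfn5 had 84.9, 77.2 and 61.3 CPM in BN1, 242, 204 and 145 in AFFN1 and 70.5 to 135 in control (2.64-fold, adjusted p = 0.0119). AFFN1 stood above the rest. Neither Slfn5 (adjusted p = 0.667) nor Oas2 (0.653), the 1 list member called, passed with the spread of all 18 libraries. Pnp, which degrades purine nucleosides, had 722, 767 and 614 CPM against 1404, 1508 and 1459 (2.08-fold lower, adjusted p = 0.00576, and 0.0913 with all 18). Pnp overlaps Pnp2, a close copy, so its level is uncertain.

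Markers of other cell types were measured beside these groups. Of 24 T, NK and innate lymphoid genes 10 were tested and 3 called (30%, beside 11.2% of all genes), all lower in BN1, among them Thy1 at 0.632, 0.129 and 0.318 CPM against 1.93, 2.21 and 2.28 (adjusted p = 0.00531). The count was 1 without BN1 2, BN1 3, AFFN1 1 or AFFN1 2. The list's summed level was 423 to 438 CPM in BN1 and 437 to 541 in AFFN1, and 6 members, Cd3e and Cd8a among them, had 0 reads in both fusions. Of 21 myeloid genes 12 were tested and 2 called (16.7%), both lower in BN1, with summed levels of 361 to 391 and 399 to 500 CPM and 5 members, Mpo and Elane among them, at 0 reads. The myeloid count was 1 without any 1 of the fusion libraries other than AFFN1 3. Of 17 erythroid and megakaryocyte genes 6 were tested and 3 called (50%), with Car2 and the globin gene Hbb-bt higher and the factor gene Gata1 lower, at summed levels of 399 to 522 CPM in BN1 and 365 to 566 in AFFN1. Hbb-bt was not called without BN1 1, BN1 2 or any 1 AFFN1 library (adjusted p = 0.0636 to 0.123). Of 13 dendritic cell genes 7 were tested and 2 called (28.6%), Bst2 and Pacsin1, both lower, with a median of -0.57 and summed levels of 555 to 602 and 538 to 713 CPM. Pacsin1 was not called without control 1, BN1 1, BN1 3 or any 1 AFFN1 library (adjusted p = 0.0777 to 0.146). Stromal genes, 12 tested of 19, were all below 0 on the log2 scale, with 1 called (Pdgfra) and a median of -1.52. Their summed level was 27.6, 16.8 and 106 CPM in BN1 and 54.4, 210 and 66.3 in AFFN1, and Pdgfra was not called without AFFN1 2 (adjusted p = 0.147), control 1 (0.0566), BN1 1 (0.114) or BN1 2 (0.0908). Of the 18 immediate early and stress genes 16 were positive, with a median of 1.30. Fos had 22.1, 28.6 and 139 CPM in BN1 and 32, 20.8 and 24.9 in AFFN1, so BN1 3 alone was high. The calls of the list were Egr2, higher, and Ier3, lower, and neither was stable. Egr2 was not called without any 1 of the 6 fusion libraries (adjusted p = 0.0544 to 0.159, and 0.153 without BN1 3). Ier3 was not called without BN1 1 (0.0737), BN1 2 (0.0655), AFFN1 1 (0.0555) or AFFN1 2 (0.0535). The part of these cells and of this library in the other results was not tested, beyond the fits without each library.

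The same comparison on day 14 used other libraries and, by sex-linked transcripts, cells of the other sex: Ddx3y, a Y-linked gene, was at 90.3 to 135 CPM in all 9 libraries of day 6 and Xist, the X inactivation RNA, at up to 0.298, whereas on day 14 Xist was at 205 to 454 CPM and Ddx3y at up to 0.0539 in all 9. The day and the animals or cultures used therefore cannot be told apart. On day 14 none of 11657 genes was called by edgeR in the main fit, which did not pair libraries (0%), with 992 at an unadjusted p under 0.05. DESeq2 called 90 genes, the fit with no filter 5, and the fit with the replicate number as a block, which pairs the libraries of that day, 21 (0.18%). Libraries of a group lay further apart on day 14 than on day 6. Chi-square per degree of freedom between libraries of a group was 53.8 to 122 in AFFN1 and 25.4 to 32.3 in BN1. On day 6 these values were 3.84 to 17.1 and 11 to 20. The count of 0 calls on day 14 therefore does not show that the differences were absent. The differences of day 6 were mostly small on day 14. The 1252 called genes of day 6 that were tested on day 14 had a median absolute log2 difference of 0.86 on day 6 and 0.28 on day 14, against 0.19 for all genes on day 14. Of these, 741 (59.2%) had the same sign on both days, beside 56.7% of all 11302 genes tested on both. For the 77 genes past 16-fold on day 6 that were tested on day 14 the median was 5.14 on day 6 and 0.69 on day 14, and 41 had the same sign. Both sets were chosen by their day 6 difference, so a smaller value on day 14 follows in part from the choice.

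Examples from the genes with large day 6 differences carry the same limit. Fads3 had a mean of 12.9 CPM in BN1 and 14.3 in AFFN1 on day 14, Tspan2 122 and 128, and Hexa 16.1 and 18. Among genes high in BN1 on day 6, Cav2 had 11.4 and 12.7 CPM on day 14 and Acsf2 11.6 and 12.4. The Acsf2 libraries of day 14 ranged from 6.08 to 19.7 CPM in BN1 and 1.02 to 20.6 in AFFN1, so these means are uncertain. The difference itself changed between days in 293 of 12567 genes (2.33%) in a fit of all 18 libraries without pairing, and in 575 with the replicate block. Of the 1349 genes called on day 6, 257 (19.1%) changed in the fit without pairing. Syk changed by 2.56 ± 0.41 (SE) on the log2 scale (adjusted p = 0.0017), from 4.12-fold lower in BN1 on day 6 to means of 643 CPM in BN1 and 446 in AFFN1 on day 14. Slfn5 had means of 6.96 and 32.3 CPM on day 14 and Bst2 13.4 and 37.2. In the fit of all 18 libraries neither the day 6 difference (adjusted p = 0.667 and 0.54) nor its change (0.901 and 0.973) was called for them, which says nothing about stability. With the block, 6 genes were called on both days, of which Ccdc166 and Capn1, a calpain protease gene, had the same sign and Cxcr5, Smoc1, Lynx1 and Fbln1 the opposite sign.

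**Figure D5:**
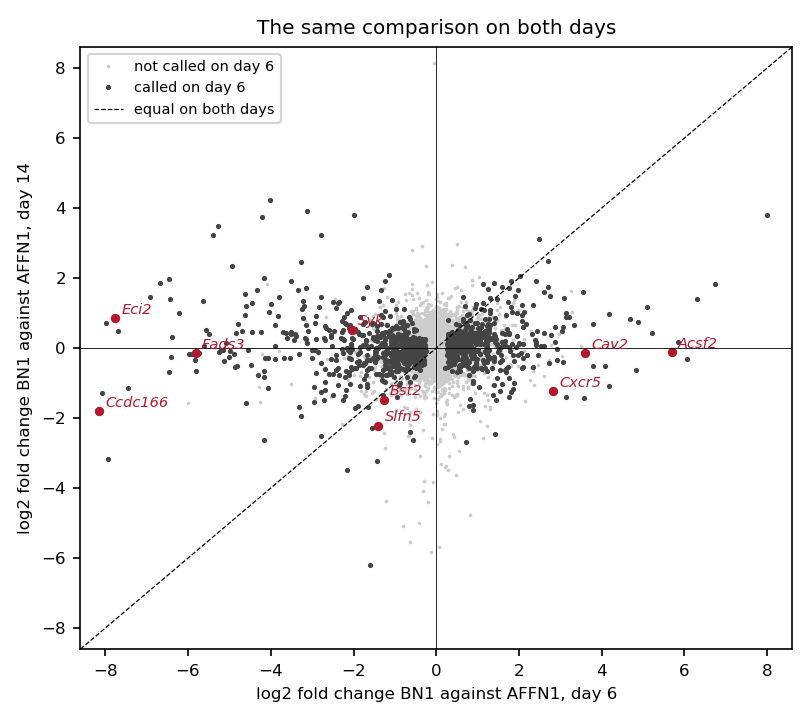
Each point is a gene tested on both days, with its log2 fold change of BN1 against AFFN1 on day 6 (horizontal) and day 14 (vertical), dark where called on day 6, and with a dashed line where both are equal. The fits of both days did not pair libraries. Most dark points lie near 0 on the vertical axis (median absolute difference 0.28), for example Fads3, Cav2 and Acsf2, while Slfn5, Bst2 and Ccdc166 are negative on both days.

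The X chromosome held 2.85% of tested genes, 4.98% of those called higher in BN1 and 2.68% of those called lower. Of the 48 nearest tested neighbours of the 24 genes with the largest differences, 6 (12.5%) were called in the same direction as the gene itself, beside 4.99% of all tested genes called higher and 6.19% called lower. They include Fads2, next to Fads3, at 139, 157 and 131 CPM in BN1 and 247, 241 and 236 in AFFN1 (1.7-fold lower, adjusted p = 0.00145), and Gstt2 and Ddt near Gstt3. Gstt2 and Ddt share that locus, and Ccdc116, also among the 6, overlaps Ydjc, so the 6 are not all separate cases.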

How the data were processed

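RNA was measured by poly(A)-selected, strand-keeping sequencing libraries. The authors deposited expected counts per gene, and STAR, RSEM, DESeq2 and mm10 are named per the submitters' processing notes. The versions, annotation and strand option of that counting step were not given in the sources used here. Of the values in a library, 1.74 to 2.12% were not whole, and all were rounded. The table holds 32285 genes, of which 32235 were found in GENCODE M21.

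In R 4.3.3, genes were filtered with filterByExpr, scaled by TMM and compared by edgeR's quasi-likelihood test (edgeR 4.0.16, limma 3.58.1), two-sided, with Benjamini-Hochberg adjustment over all tested genes and a call at an adjusted p under 0.05. Each day's fit used its 9 libraries, and the change between days all 18. In total 5 comparisons were made. DESeq2 1.42.0 was an alternative, beside other scaling, no filter, a replicate block, other sets of libraries and leaving out single libraries. Control libraries were left out only in the comparisons within day 6. The script was tested on simulated data with known changes. Intervals of count ratios are exact binomial intervals and cover counting error only. Where a group had no more than 3 reads, the ratio is given in place of a fitted fold change.

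Named genes were, by size of log2 difference, 12 called genes in each direction (averaging 5 CPM or more in 1 group, groups not overlapping). Others were the 8 called genes each way with the largest difference in reads, at least 2-fold apart and not overlapping. The rest were fixed genes and called members of 35 lists (557 genes, 1 absent from the table). Not all are printed, and some genes are not reported here. Genes of the chromosomal neighbourhood and those called on both days are named outside this rule, after their values were seen. The comparison, the lists and the tests were chosen with earlier results of these data known. Bst2, Slfn5, Acsf2 and the other genes with earlier results are not independent evidence.

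Libraries of the same number correlated at -0.321 to 0.351 in their deviations from group means on day 6, so the numbers were not taken as pairs. On day 14 they correlated at 0.291 to 0.614, and the sample descriptions give them a shared code, so a replicate block was fitted as an alternative. The main fits of day 14 and of the change between days did not use this pairing. They called 0 and 293 genes, against 21 and 575 with the block. All pairs of libraries of a group differed by more than counting noise. Promoter windows came from RefSeq (GRCm38.p6), which had an entry for 77.7% of tested genes, and promoter CG content was not compared over all tested genes.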

Additional observations from a re-analysis of the deposited data

Results flagged for a closer look

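For 16 of the 24 genes with the largest day 6 differences, the difference between BN1 and AFFN1 itself changed from day 6 to day 14 in a fit of all 18 libraries. Of all 12567 genes in that fit 293 (2.33%) changed, and of the 1349 called on day 6, 257 (19.1%). That fit did not pair libraries. Values are the day 14 difference minus that of day 6, on the log2 scale, with edgeR's adjusted p. The genes were chosen by their day 6 difference, which is part of the change. The cells of the 2 days also differed in sex, and the days cannot be told apart from the cells used.

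Among genes higher in BN1 on day 6, the change was -8.64 for Klk8 (adjusted p = 0.000346), -5.80 for Acsf2 (0.00758), -4.78 for Myom2 (0.00644), -3.76 for Cav2 (5.69e-05) and -4.53 for Tenm4 (0.0154). The Tenm4 call was lost without the day 6 library AFFN1 1 (adjusted p = 0.0513) or AFFN1 2 (0.0516).

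Klk8 had 2 reads in AFFN1 on day 6, and Ccdc166 and Nxt2 had 1 and 3 in BN1, so the size of their fitted changes depends on the fit's prior count.

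Among genes lower in BN1 on day 6, the change was 6.32 for Ccdc166 (adjusted p = 6.23e-05), 8.68 for Crip1 (2.4e-06), 8.62 for Eci2 (1.38e-08), 5.77 for Itm2a (0.00525), 6.69 for Nxt2 (1.47e-06) and 5.81 for Cntln (7.84e-05). It was 5.73 for Hexa (4.92e-06), 5.68 for Fads3 (0.000724), 5.15 for Hsd17b11 (6.23e-05), 6.08 for Gstt3 (0.00484) and 5.89 for Cysltr1 (8.89e-05).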

How the results depend on the processing

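Of 1600 alternative values of 100 called genes of the day 6 comparison, 1397 stayed on the same side of the threshold, 203 lost the call and 0 changed sign. Calls also lost with all 18 libraries in the fit include Cd22 (adjusted p = 0.279), Cd24a (0.363), Ell3 (0.146), Brdt (0.225) and Ccne1 (0.0714). Those of Hbb-bt (0.597), Pacsin1 (0.258), Pdgfra (0.0572) and Egr2 (0.095) were lost there as well. The count of calls, 1349, was 624 with all 18 libraries in the fit and 725 to 1897 without 1 library (725 without AFFN1 2, 787 without AFFN1 1). This count was 1779 with only the 6 fusion libraries, 1781 by DESeq2 and 1741 without the 3 libraries numbered 3. Without 1 library it was 1141 to 3495 for BN1 against control (2095) and 739 to 2250 for AFFN1 against control (1528), and without the 3 libraries numbered 3 it was 3890 and 3873. The change between days was called in 176 to 308 genes without 1 BN1 or AFFN1 library, against 293, and in 511 by DESeq2. On day 14 the count was 5 with no filter and 90 by DESeq2, and 0 without any 1 BN1 or AFFN1 library. Control libraries of day 14 were not left out. With the replicate block the counts were 1233 for BN1 against AFFN1 on day 6, 21 on day 14 and 575 for the change between days, and 1801 and 1347 for BN1 and AFFN1 against control.

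Genes that were not called and changed sign were Aff1 (log2 differences of -0.0485 to 0.101 without 1 library, -0.0861 without the 3 libraries numbered 3) and Arid1a (-0.0960 to 0.0703 without 1 library). So did Hoxa9 (-0.39 to 0.0565), Mcl1 (-0.138 to 0.195, and -0.162 without the libraries numbered 3) and Npm1 (-0.20 to 0.0298, and 0.0486 without those libraries). The causes were not tested. The depth of 14.2 to 17.7 counts in units of 1e6 leaves genes under 1 CPM at few reads a library.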
